A study of Rattus norvegicus with 6 samples.

Results

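The 10 genes that carry phosphate across the proximal tubule cell, receive the hormones that set its reabsorption, or read and break down vitamin D were followed in rat kidney RNA-seq of a control and an amino acid-enriched diet. They were chosen by name for their known function, with earlier results of these data known. They are 10 of the 17051 genes in the expression files: the sodium-phosphate cotransporters Slc34a1, Slc34a3, Slc20a1 and Slc20a2, the parathyroid hormone receptor Pth1r, the FGF23 co-receptor Kl and its receptor partner Fgfr1, the vitamin D receptor Vdr, and the vitamin D hydroxylases Cyp27b1 and Cyp24a1. The RNA-seq covered 6 male Sprague Dawley rats. The AL group (*n* = 3, rats 61, 71 and 88) had standard powdered chow ad libitum, and the HD group (*n* = 3, rats 64, 67 and 69) had the same kind of chow with an amino acid mixture that mimics hemoglobin, given for about a week to raise ammonia production. All rats underwent surgery for blood sampling before tissue was taken, no transgene or deletion was involved, and the labels give kidney with no region of it. They do not say that the same region was taken in each rat, and the part of that in the differences was not tested.

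Filtered phosphate is reclaimed in the proximal tubule by cotransporters in the brush border, which use the sodium gradient. Parathyroid hormone, through Pth1r, and FGF23, through Fgfr1 with Klotho, both take these cotransporters out of the membrane. Active vitamin D is made in the proximal tubule by Cyp27b1, acts through Vdr, and is broken down by Cyp24a1, whose gene is among the best known targets of Vdr. Klotho, Vdr and the calcium carriers Trpv5 and Calb1 are also known from the distal nephron, where calcium is reclaimed.

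The main pattern was a higher mean in the HD group for each of the 9 members with enough counts to test. These were Slc34a1, Slc34a3, Slc20a1, Slc20a2, Pth1r, Kl, Fgfr1, Vdr and Cyp24a1. For Fgfr1 the difference was near 0 and its sign depended on the scaling. The median log2 fold change of the 9 was 0.70, against 0.0067 over all 11553 genes tested. Of the 9, 7 lay above the 90th percentile of all genes, 0.35. Because the members were chosen with earlier results of these data known, this contrast with all genes is a description and not an independent test. The individual calls were weak. In edgeR's quasi-likelihood test with Benjamini-Hochberg adjustment, 0 of the 9 members had an adjusted *P* of at most 0.05, as did 0 of all genes (0% called). At an unadjusted *P* below 0.05, 6 members were higher in the HD group (Slc34a1, Slc34a3, Pth1r, Kl, Vdr and Cyp24a1) and 0 were lower, where 4.66% of all genes were higher and 10.6% differed in either direction. That count of 6 went down to 3 without rat 61, rat 88 or rat 64. DESeq2 called 1 member at its adjusted threshold, Pth1r, and 0.805% of all genes as higher in the HD group.

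Every library was sequenced from 1 rat, with total counts between 12499945 and 30466461, the deepest from HD rat 69. Levels within a gene are given as CPM, which are counts relative to the total of the library after TMM scaling, and levels between genes as TPM, which are also per transcript length. All errors are SD over rats, and log2 fold changes are HD over AL with their standard errors. In 6 rats the smallest *P* of a two-sided exact permutation test is 0.1. In bulk tissue, fewer cells of a type and less RNA per cell cannot be told apart.

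The start regions of 2 pairs of members are printed here, since the proximal pair Slc34a1 and Slc34a3 and the pair Kl and Vdr, whose rats ranked alike, carry the results that follow. RefSeq's promoter table on build GRCr8 held 6 of the 10 members, each with 250 bases before and 50 after the annotated start, on the gene's own strand. Capitals mark the motifs named after the sequences.
Slc34a1: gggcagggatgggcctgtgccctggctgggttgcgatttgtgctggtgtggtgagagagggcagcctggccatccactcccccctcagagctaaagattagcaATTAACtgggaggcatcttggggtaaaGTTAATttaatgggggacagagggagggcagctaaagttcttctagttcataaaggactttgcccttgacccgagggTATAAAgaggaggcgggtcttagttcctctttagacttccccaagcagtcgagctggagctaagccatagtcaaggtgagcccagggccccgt
Slc34a3: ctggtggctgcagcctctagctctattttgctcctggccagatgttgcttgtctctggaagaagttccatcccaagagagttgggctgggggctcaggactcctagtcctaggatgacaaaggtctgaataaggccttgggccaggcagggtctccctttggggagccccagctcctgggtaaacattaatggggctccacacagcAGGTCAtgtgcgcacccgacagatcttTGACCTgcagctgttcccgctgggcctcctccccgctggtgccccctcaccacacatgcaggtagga
Kl: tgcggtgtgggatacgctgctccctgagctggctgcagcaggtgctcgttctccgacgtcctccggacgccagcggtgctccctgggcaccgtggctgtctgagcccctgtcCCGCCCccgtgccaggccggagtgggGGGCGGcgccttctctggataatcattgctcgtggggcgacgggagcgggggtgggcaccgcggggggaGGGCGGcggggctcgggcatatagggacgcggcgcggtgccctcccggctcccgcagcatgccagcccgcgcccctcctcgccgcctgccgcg
Vdr: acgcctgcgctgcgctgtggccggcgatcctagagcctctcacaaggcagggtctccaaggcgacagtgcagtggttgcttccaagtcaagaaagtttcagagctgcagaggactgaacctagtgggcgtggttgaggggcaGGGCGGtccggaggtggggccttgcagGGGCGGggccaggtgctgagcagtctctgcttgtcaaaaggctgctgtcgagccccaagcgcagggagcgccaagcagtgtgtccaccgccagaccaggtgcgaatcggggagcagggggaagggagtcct
These windows are chr17:9238934-9239233 on the minus strand for Slc34a1, chr3:28447948-28448247 on the minus strand for Slc34a3, chr12:5325753-5326052 on the plus strand for Kl and chr7:130916708-130917007 on the minus strand for Vdr.

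The 4 windows held different motifs, searched on both strands. Slc34a1 had the GTTAAT core bound by hepatocyte nuclear factor 1 in each orientation, beginning at -147 and -120 from the start, and a TATAAA box at -43. Over all 33365 promoter windows of 300 bases in the table, GTTAAT was present in 7.46% and TATAAA in 14.2%. Slc34a3 had the nuclear receptor core AGGTCA on its own strand at -44 and on the other strand at -17, a motif held by 16.2% of windows. Kl and Vdr had no TATAAA and carried the GC box GGGCGG, which 33.1% of windows hold: at -138 on the other strand and at -112 and -43 for Kl, and at -108 and -81 for Vdr, counted from the start. Their GC content was 75.0% and 64.3%, against 54.7% for Slc34a1 and 58.7% for Slc34a3. The pair of AGGTCA cores in the same direction with 3 bases between them, the arrangement Vdr is known to bind, was in 0.0240% of all windows and in none of the 6 member windows, which says only that these letters are absent there.

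The levels of the members spanned several orders of magnitude. The mean over the 6 rats was 1450 TPM for Slc34a1, 316 for Pth1r, 57.6 for Slc20a1, 49.99 for Fgfr1, 22.3 for Cyp24a1, 17.6 for Slc20a2, 16.8 for Kl, 12 for Vdr, 1.97 for Slc34a3 and 0.167 for Cyp27b1. The 4 steps in that order were clean in every rat: the lowest Slc34a1 value was above the highest Pth1r value, the lowest Pth1r above the highest Slc20a1, the lowest Vdr above the highest Slc34a3, and the lowest Slc34a3 above the highest Cyp27b1. The neighbours from Slc20a1 to Vdr had overlapping ranges, and Cyp24a1 crossed several of them, from 3.27 TPM in AL rat 71 to 88.9 TPM in HD rat 64. Ordered by the AL mean alone, 6 members changed rank.

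**Figure D1:**
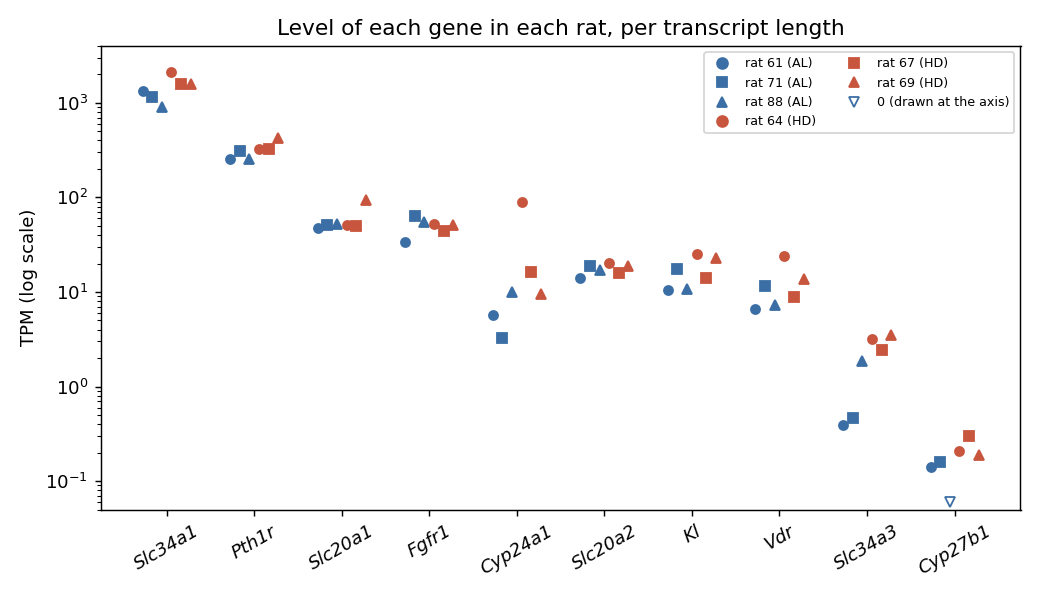
Level of the 10 genes in each of the 6 rats, in TPM on a log axis, in the order of the mean over all rats; blue symbols are AL rats and red symbols HD rats, and an open triangle marks the single value of 0. Slc34a1 (mean 1450 TPM) and Pth1r (316 TPM) stand above the rest, and Cyp24a1 has the widest spread, 3.27 to 88.9 TPM.

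Slc34a1 encodes the main apical phosphate carrier of the proximal tubule (rn5 chromosome 17, 11856946 to 11872100, minus strand, 13 exons). It was measured at 2268, 1618 and 1366 CPM in AL rats 61, 71 and 88 and at 3518, 2649 and 2389 CPM in HD rats 64, 67 and 69. All 3 HD rats were above all 3 AL rats, although the lowest HD rat and the highest AL rat lay close together. The means were 1751 ± 465 (SD, *n* = 3) and 2852 ± 591 (SD, *n* = 3), which is 0.70 on the log2 scale (standard error 0.24), or 1.63-fold with a 95% interval from 1.11 to 2.39. The adjusted *P* was 0.406 in edgeR's quasi-likelihood test with Benjamini-Hochberg adjustment (unadjusted *P* = 0.0190) and 0.0999 in DESeq2. Leaving out each rat in turn gave 0.52, without rat 64, to 0.93, without rat 61, and the unadjusted call was lost without rat 71, 88 or 64.

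Slc34a3, the second apical carrier of that membrane, was far less abundant in these kidneys (chromosome 3, 2429676 to 2435216, minus strand, 13 exons). It had 7, 10 and 35 counts in AL rats 61, 71 and 88 and 51, 68 and 140 counts in HD rats 64, 67 and 69, which is 0.556, 0.554 and 2.32 CPM against 4.33, 3.40 and 4.48 CPM. The HD rats were close to each other and above all AL rats, and AL rat 88 was apart from the other two. On the log2 scale the difference was 1.82 (standard error 0.57), 3.54-fold with a 95% interval from 1.40 to 8.99, from means of 1.14 ± 1.02 and 4.07 ± 0.585 CPM (SD, *n* = 3 each). Its adjusted *P* was 0.406 in edgeR's quasi-likelihood test (Benjamini-Hochberg) and 0.112 in DESeq2. Without rat 88 the log2 fold change was 2.87, but Slc34a3 then passed the minimum of 30 counts only through HD rats. Slc34a1 supplied 92.8% to 95.6% of the summed TPM of the 4 cotransporters in AL rats and 93.1% to 96.6% in HD rats, ranges that overlap.

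Slc20a1 and Slc20a2, the broadly expressed type III carriers also known as PiT-1 and PiT-2, showed smaller differences. Slc20a1 (chromosome 3, 128276543 to 128289616, minus strand, 10 exons) was at 94.2, 84.2 and 91.5 CPM in the AL rats and 98.2, 98.4 and 168 CPM in HD rats 64, 67 and 69. A single rat, 69, stood out, and the other HD rats were just above the AL rats in CPM and among them in TPM. HD exceeded AL by 0.43 on the log2 scale (standard error 0.22, 95% interval -0.07 to 0.94, adjusted *P* = 0.534 from edgeR's quasi-likelihood test with Benjamini-Hochberg adjustment), and it was 0.13 without rat 69. Slc20a2 (chromosome 16, 73949885 to 74042911, minus strand, 11 exons) was at 35.7, 40.2 and 38.9 CPM in the AL rats and at 50.3, 39.6 and 42.5 CPM in the HD rats. Its groups overlapped, and the interval of its fold, 0.94 to 1.41 around 1.15, included no change (edgeR quasi-likelihood adjusted *P* = 0.631, Benjamini-Hochberg). The ratio of Slc34a1 to Slc20a1 in TPM was 28.3, 22.6 and 17.5 in the AL rats and 42.0, 31.6 and 16.7 in HD rats 64, 67 and 69, so HD rats held both the highest and the lowest ratio.

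Pth1r, the receptor through which parathyroid hormone acts on the tubule, had groups well apart from each other (chromosome 8, 118328864 to 118348383, minus strand, 14 exons). It was at 324, 325 and 286 CPM in AL rats 61, 71 and 88 and at 403, 408 and 479 CPM in HD rats 64, 67 and 69. Every HD rat was above every AL rat, with a gap between the groups wider than the spread of the AL rats. The means were 312 ± 21.9 and 430.2 ± 42.7 CPM (SD, *n* = 3 each), or 0.47 apart on the log2 scale (standard error 0.12), 1.38-fold with a 95% interval from 1.13 to 1.69. The unadjusted *P* was 0.00626 and the adjusted *P* 0.398 in edgeR's quasi-likelihood test (Benjamini-Hochberg), and DESeq2 gave an adjusted *P* of 0.0394. It stayed between 0.39 and 0.51 with each rat left out. Pth1r and Slc34a3 were the only members to keep an unadjusted *P* below 0.05 in all 6 of these fits. For Slc34a3, the fit without rat 88 was possible only through HD rats, so that result depended on the group where it was high.

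Of the 9 tested members, 4 had all HD rats above all AL rats in CPM (Slc34a1, Slc34a3, Slc20a1 and Pth1r), where 7.26% of all tested genes did so. For each of the 4 the exact permutation test gave its smallest value, *P* = 0.1. Groups of 3 rats that do not overlap always give that value, so it adds nothing to the separation itself. With library size alone as the scaling, or in TPM, 3 tested members had groups that did not overlap.

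Kl encodes Klotho, which turns an FGF receptor into a receptor for FGF23 (chromosome 12, 929158 to 972144, plus strand, 6 exons). It was at 25.9, 36.1 and 23.8 CPM in AL rats 61, 71 and 88 and at 60.5, 33.9 and 50.01 CPM in HD rats 64, 67 and 69. The groups overlapped: HD rat 67 was below AL rat 71, and the other HD rats were above all AL rats. The difference was 0.75 on the log2 scale (standard error 0.24), 1.68-fold with a 95% interval from 1.13 to 2.49, and the adjusted *P* was 0.406 in edgeR's quasi-likelihood test with Benjamini-Hochberg adjustment (unadjusted *P* = 0.0170). Leaving out each rat gave 0.55 to 0.95, with the unadjusted call lost without rat 61, 88 or 64, and DESeq2 an adjusted *P* of 0.149.

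Fgfr1, the receptor that pairs with Klotho, had no separation between the groups (chromosome 16, 70925604 to 70965251, minus strand, 17 exons). Its levels were 57.7, 91.7 and 83.8 CPM in the AL rats and 87.1, 74.0 and 78.6 CPM in the HD rats, so all HD values lay inside the AL range. The fold was 1.03 with a 95% interval from 0.77 to 1.37, a log2 fold change of 0.04 (edgeR quasi-likelihood adjusted *P* = 0.972, Benjamini-Hochberg), and the sign turned with library size alone as the scaling, to -0.06. Leaving out each rat moved it between -0.14 and 0.17. The mean TPM of Fgfr1 was slightly lower in the HD group, at 49.07 against 50.91 in the AL group. The interval leaves room for a difference of about the size seen for Slc20a2 and not for that of Kl.

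Vdr, the nuclear receptor for active vitamin D, lies at chromosome 7, 139536241 to 139585928, on the minus strand, with 10 exons. It was at 9.29, 13.7 and 9.07 CPM in AL rats 61, 71 and 88 and at 32.8, 12.5 and 17.2 CPM in HD rats 64, 67 and 69. As for Kl, HD rat 67 was below AL rat 71 and HD rat 64 was the highest. HD was above AL by 0.95 on the log2 scale (standard error 0.37), 1.93-fold with a 95% interval from 1.07 to 3.49, with an unadjusted *P* of 0.0339 and an adjusted *P* of 0.432 in edgeR's quasi-likelihood test (Benjamini-Hochberg). Without rat 64 it was 0.47, and the unadjusted call was lost without rat 61, 88 or 64 and with library size alone as the scaling.

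Cyp24a1, the 24-hydroxylase that degrades active vitamin D, had the largest mean difference and the widest spread of the members (chromosome 3, 174202770 to 174214440, minus strand, 11 exons). It was at 6.04, 2.88 and 9.53 CPM in AL rats 61, 71 and 88 and at 91.5, 16.9 and 9.05 CPM in HD rats 64, 67 and 69. Rat 64 was far above all others, rat 67 was modestly above the AL rats, and rat 69 was below AL rat 88. This amounted to 2.66 on the log2 scale (standard error 0.89), 6.33-fold with a 95% interval from 1.49 to 26.8, and the adjusted *P* was 0.406 in edgeR's quasi-likelihood test (Benjamini-Hochberg) and 0.198 in DESeq2. Without rat 64 it was 1.08, and the unadjusted call was lost without rat 61, 71 or 64. The ratio of Cyp24a1 to Vdr in CPM was 0.650, 0.210 and 1.05 in the AL rats and 2.79, 1.35 and 0.525 in the HD rats, so the groups overlapped in it.

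Cyp27b1, the 1-alpha-hydroxylase that makes active vitamin D, was at the edge of detection (chromosome 7, 70512763 to 70517707, plus strand, 9 exons). It had 3, 4 and 0 counts in AL rats 61, 71 and 88 and 4, 10 and 9 counts in HD rats 64, 67 and 69, too few for the count minimum of 30 in at least 1 rat. A count of 0 in rat 88 allows a level of up to 0.199 CPM, counting error only. In CPM the HD rats were at 0.340, 0.4997 and 0.288 and the AL rats at 0.238, 0.222 and 0, so every HD rat was above every AL rat. HD rat 64 and AL rat 71 had the same count, 4, and differed in CPM only through library scaling. A difference was not tested at this depth.

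**Figure D2:**
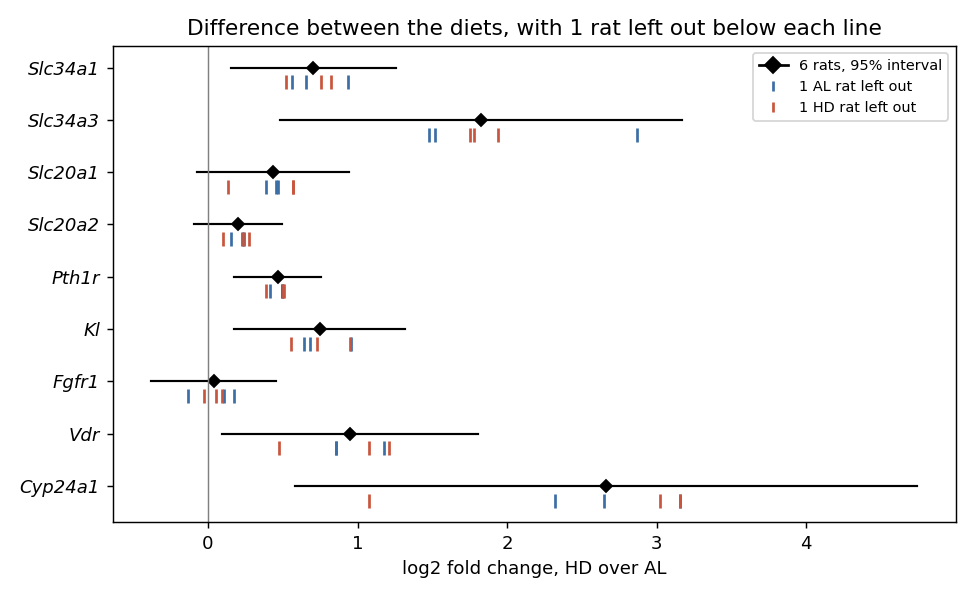
Log2 fold change, HD over AL, of the 9 tested genes with its 95% interval over 6 rats (diamond and line), and below each line the values with 1 rat left out, blue for an AL rat and red for an HD rat. The interval of 6 genes lies above 0; Cyp24a1 goes from 2.66 to 1.08 and Vdr from 0.95 to 0.47 without rat 64, while Pth1r stays between 0.39 and 0.51.

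No single order of the 3 HD rats held for all members. Kl, Vdr, Slc20a2 and Fgfr1 had rat 64 highest, then 69, then 67, an order that 11.7% of all tested genes had. Slc34a1 and Cyp24a1 followed 64, 67 and 69 (17.2% of all genes), Slc20a1 and Pth1r followed 69, 67 and 64 (22.0%), and Slc34a3 followed 69, 64 and 67 (17.2%). Kl and Vdr were also ordered alike over the AL rats, with rat 71 highest and rat 88 lowest.

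**Figure D3:**
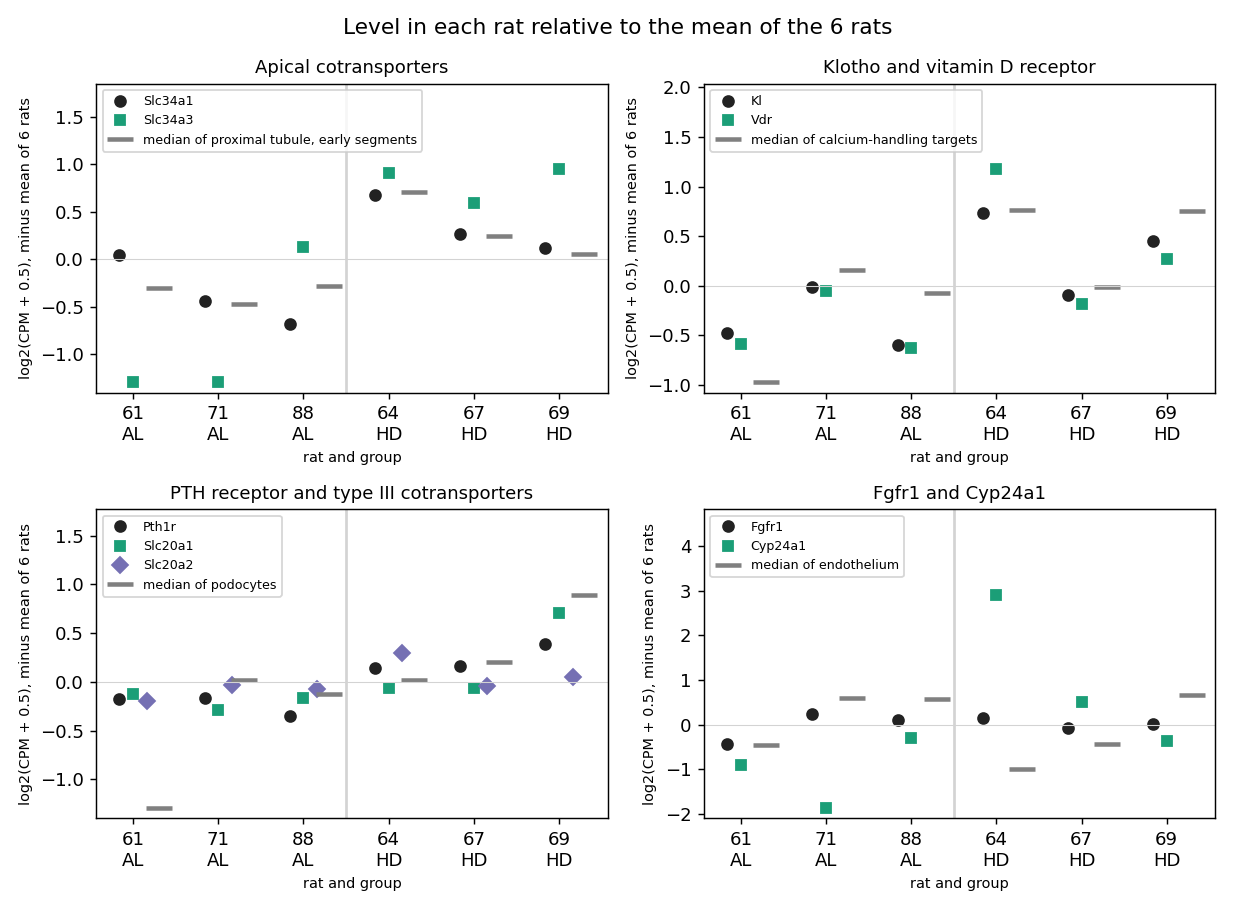
Level of 9 genes in each rat as log2(CPM + 0.5) minus the mean of the 6 rats, with a grey bar for the median of a gene list named in the panel. Kl and Vdr rank the rats alike within each group, Slc34a1 has the same order over the HD rats as the early proximal tubule median, and Cyp24a1 is high in rat 64 (91.5 CPM).

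The 63 other genes of these pathways were in 4 lists chosen by function, also with earlier results of these data known. They had a median log2 fold change of 0.16, and 40 of the 55 tested were above 0. Over all 11553 genes tested, the median was 0.0067 and 5928 were above 0. At an unadjusted *P* below 0.05 in edgeR's quasi-likelihood test, 5 were higher in the HD group and 2 were lower, where 538 of all 11553 genes were higher and 686 lower. After Benjamini-Hochberg adjustment 0 passed, and DESeq2 called 2, Rxrg and Trpv5. Of the 5 higher genes, Dmp1 and Rxrg passed the count minimum only through an HD rat, so their place in that count depended on the group where they were high.

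Scaffold proteins and further phosphate transporters gave 15 tested genes with a median of 0.19. The most abundant by TPM were Pdzk1ip1 (log2 fold change 0.14), Slc9a3r1, the NHERF1 scaffold that holds Slc34a1 at the membrane (0.24), and Pdzk1, another such scaffold (0.30), and none of these 3 had an unadjusted *P* below 0.05. Slc9a3, the sodium-proton exchanger NHE3 of the same brush border, was at 119, 116 and 140 CPM in the AL rats and 58.9, 72.2 and 106 CPM in HD rats 64, 67 and 69. All HD rats were below all AL rats, the opposite direction to Slc34a1, with a log2 difference of -0.66 (standard error 0.21, edgeR quasi-likelihood adjusted *P* = 0.406, Benjamini-Hochberg). Enpp1, an enzyme that makes pyrophosphate, was at 11.7, 17.5 and 15.8 CPM against 21.2, 18.5 and 20.7 CPM, without overlap and close together, with a log2 difference of 0.42 (standard error 0.18).

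Hormones, receptors and early targets of FGF23 and parathyroid hormone signalling gave 18 tested genes with a median of 0.04. Transcripts of Fgf23, a hormone made in bone, Pth, the parathyroid hormone itself, and Mepe, a bone matrix protein, were at 0 in every rat. The most abundant were Gnas, the stimulatory G protein subunit (log2 fold change -0.09), Fam20c, a secretory kinase (0.26), and Fgfr4, another FGF receptor (0.02). Spry1, a feedback inhibitor of FGF signalling, was at 7.86, 14.1 and 18.0 CPM in the AL rats and 6.03, 6.50 and 7.93 CPM in the HD rats. The groups touched, since HD rat 69 was just above AL rat 61, and the log2 difference was -0.96 (standard error 0.31, edgeR quasi-likelihood adjusted *P* = 0.406, Benjamini-Hochberg). Dmp1, a bone matrix protein, had 5, 4 and 3 counts in the AL rats and 10, 8 and 42 counts in the HD rats and was tested only because of rat 69, with a log2 difference of 1.69 (standard error 0.66).

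Vitamin D uptake genes and receptor partners gave 15 tested genes with a median of 0.16. Gc, the vitamin D binding protein (log2 fold change -0.31), Lrp2, the megalin receptor that takes it up (0.19), and Amn, a partner of the cubilin receptor (0.16), were the most abundant and none had an unadjusted *P* below 0.05. Rxrg, a retinoid X receptor that can pair with Vdr, had 6, 7 and 4 counts in the AL rats and 28, 28 and 97 counts in HD rats 64, 67 and 69. It passed the count minimum only through an HD rat, so its inclusion depended on the group where it was high. In CPM it was at 0.477, 0.388 and 0.265 against 2.38, 1.40 and 3.10, a log2 difference of 2.60 (standard error 0.49, edgeR quasi-likelihood adjusted *P* = 0.334, DESeq2 adjusted *P* = 0.0104).

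Among the distal calcium carriers, all 7 tested genes had a log2 fold change above 0, with a median of 0.59, and 4 of the 7 had the order 64, 69, 67 over the HD rats. Calb1, the calcium-binding protein calbindin, was at 35.4, 113 and 54.3 CPM in AL rats 61, 71 and 88 and at 413, 140 and 291 CPM in HD rats 64, 67 and 69. As in Kl and Vdr, rat 71 was the highest of the AL group and rat 67 the lowest of the HD group, but here the groups did not overlap. For Calb1 the log2 fold change was 2.05 (standard error 0.51, edgeR quasi-likelihood adjusted *P* = 0.379, DESeq2 adjusted *P* = 0.0676), and leaving out each rat gave 1.67 to 2.65. Trpv5, the apical calcium channel of these cells, was at 0.556, 1.77 and 1.13 CPM against 13.8, 3.50 and 6.04 CPM, a log2 fold change of 2.71 (edgeR quasi-likelihood adjusted *P* = 0.368, DESeq2 adjusted *P* = 0.00229). The other abundant genes of the list, S100g and Atp2b1, had log2 fold changes of 0.01 and 0.03.

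**Figure D4:**
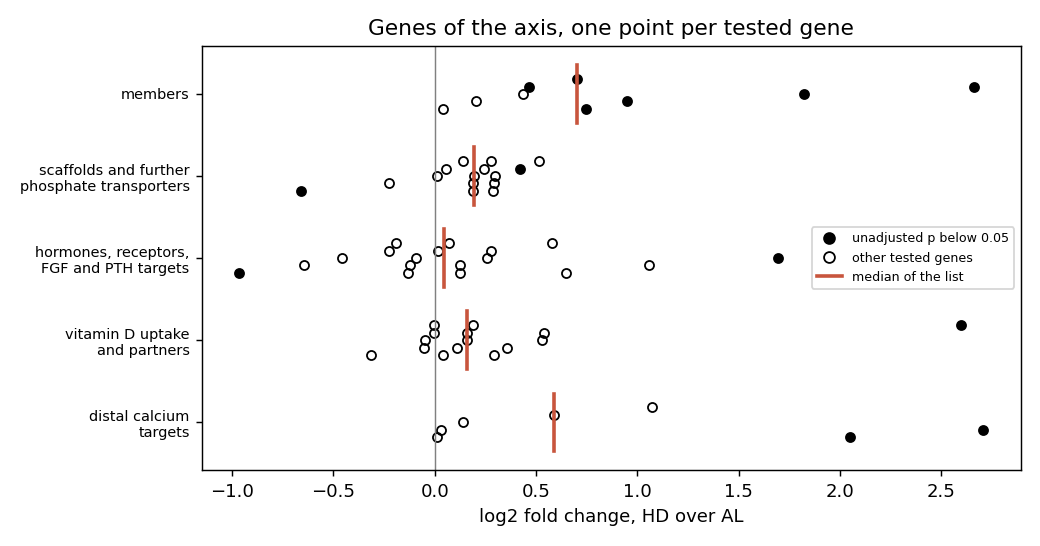
Log2 fold change, HD over AL, of each tested gene among the members and the 4 lists; filled points have an unadjusted *P* below 0.05 and red lines are the medians. The median is 0.70 for the members, 0.59 for the distal calcium genes and 0.19, 0.04 and 0.16 for the other lists.

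The levels of several cell type markers also moved with the groups. Of 10 tested early proximal tubule genes, 6 were higher in the HD group at an unadjusted *P* below 0.05, where Slc4a4, 1 of the 6, and Slc5a2, tested but not among them, had passed the count minimum only through HD rats. Over all 11553 genes tested, 538 were higher at that threshold. The summed level of the list was 5940 to 9956 CPM in the AL rats and 10250 to 13262 CPM in the HD rats. Slc22a6, an organic anion transporter of these segments, was at 300, 279 and 210 CPM against 739, 512 and 410 CPM in rats 64, 67 and 69, the same HD order as Slc34a1. Divided by that summed level, Slc34a1 was 0.228, 0.272 and 0.169 in the AL rats and 0.265, 0.247 and 0.233 in the HD rats. On that measure the groups overlapped, with AL rat 71 the highest. Pck1, a large part of that sum, was at 2558, 724 and 2480 CPM in the AL rats. In HD rats 64, 67 and 69 it was at 3684, 2578 and 3526 CPM. The low sum of rat 71, and with it the overlap, thus rests in part on Pck1. With Pck1 taken out of the sum, HD rat 69 was below AL rat 61, so the groups then overlapped in the sum. Slc34a1 divided by that smaller sum was higher in every HD rat than in every AL rat. Both the separation in the sum and the overlap in the ratio thus depended on Pck1. The defining first-segment markers were low, at 0.63 to 1.38 TPM for Slc5a2 and 0.09 to 0.30 TPM for Slc5a12, while Slc7a13 of the late segment was at 4468 to 7403 TPM.

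Beside Kl and Vdr, the distal convoluted tubule marker Slc12a3, the thiazide-sensitive cotransporter, was at 27.6, 18.1 and 27.2 CPM in the AL rats and 287, 51.5 and 216 CPM in HD rats 64, 67 and 69. It had the same HD order as Kl and Vdr and a larger log2 fold change, 2.93 (standard error 0.58, edgeR quasi-likelihood adjusted *P* = 0.338, DESeq2 adjusted *P* = 0.00473). Over the AL rats the orders differed, since rat 71 was the lowest for Slc12a3 and the highest for Kl and Vdr. Relative to Slc12a3, Kl was 0.939, 1.99 and 0.876 in the AL rats and 0.211, 0.659 and 0.231 in the HD rats, and Vdr was 0.337, 0.758 and 0.333 against 0.114, 0.243 and 0.0796. Both ratios were lower in every HD rat than in every AL rat. The other 2 tested genes of that marker list had log2 fold changes of -0.15 (Trpm7) and 0.26 (Wnk1, the median of the list). Pvalb, a defining marker, had no count in 5 of the 6 rats. Together with Pvalb, the 3 tested genes summed to 267 to 303 CPM in the AL rats and 322 to 609 CPM in the HD rats.

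Pth1r and Slc20a1 shared the HD order 69, 67, 64 with 10 of 11 podocyte, 9 of 9 endothelial and 7 of 9 mesenchymal genes. It was also the order of 3 of 6 thick ascending limb, 3 of 5 tubular injury and 4 of 9 leukocyte genes. Of all tested genes 22.0% had it, more than any other order. The summed podocyte level was 75.6 to 193 CPM in the AL rats and 225 to 472 CPM in the HD rats, with 4 of 11 genes higher at an unadjusted *P* below 0.05, 9 of 11 log2 fold changes above 0 and a median of 0.70. The endothelial genes summed to 185 to 523 CPM and 121 to 395 CPM, with a median log2 fold change of -0.29. Leukocyte genes were lower in the HD group, 6 of 9 at an unadjusted *P* below 0.05, and summed to 252 to 438 CPM in the AL rats and 149 to 324 CPM in the HD rats. At the same threshold, 686 of all 11553 genes tested were lower and 538 higher. The part of these cell types in the differences of the members was not tested.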

How the data were processed

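Poly(A)-selected kidney RNA of 6 rats was sequenced as single-end reads. The authors estimated transcript abundance with RSEM 1.1.15 on rat build rn5 with University of California Santa Cruz gene definitions, and deposited an expected count and a TPM value per transcript for each rat. Here expected counts were summed per gene symbol, rounded, and kept for genes with at least 30 counts in at least 1 rat, 11553 genes. HD was tested against AL with edgeR 4.0.16 (R 4.3.3; TMM scaling, quasi-likelihood test, two-sided, Benjamini-Hochberg over all genes tested, threshold 0.05). DESeq2 1.42.0, the tool the study used, was an alternative, as were RLE scaling, library size alone, other count filters, the deposited posterior mean counts and leaving out each rat. TPM was summed per gene to compare genes. The test was tried on simulated counts first. Total counts differed 2.44-fold, so low genes were measured most precisely in rat 69. The members and lists were chosen with earlier results of these data known. Named were all members, list genes with an unadjusted *P* below 0.05, the 3 genes of highest mean TPM per list, and defining markers. Slc34a2 was named in addition, beside the share of Slc34a1. Motifs were searched in RefSeq promoter windows of GRCr8, and no coordinate was moved between builds. No other listed gene shares exon bases with a member, and each member has 1 transcript in the files.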

Additional observations from a re-analysis of the deposited data

How the results depend on the processing

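Since 0 genes passed the adjusted threshold, keeping its side says little here, and the direction is what was compared. Among 53 values of single members under alternatives that kept every rat, only Fgfr1 changed sign, to -0.0588 with library size alone as the scaling, and Pth1r passed the adjusted threshold in DESeq2 (log2 fold change 0.46). Among 54 values with 1 rat left out, the sign changed in 2, both of Fgfr1, which ranged from -0.14 to 0.17, while sizes moved as far as from 2.66 to 1.08 for Cyp24a1 and from 0.43 to 0.13 for Slc20a1. The cause was not tested. The count of genes at an adjusted *P* of at most 0.05, 0 in edgeR with 1224 at an unadjusted *P* below 0.05, was 182 in DESeq2, 2 with no filter on low counts and 0 to 4 with 1 rat left out. The unadjusted count ranged from 606 to 1744 with 1 rat left out, and that of the members from 3 (without rat 61, 88 or 64) to 7. Genes with every HD rat above every AL rat numbered 839 in CPM, 491 in TPM and 474 with library size alone, and those with every HD rat below numbered 810, 976 and 1101. Over all genes the median log2 fold change was 0.0067, and -0.07 under library size alone. By the AL mean alone 6 members changed rank in the order by TPM. A filter of at least 10 counts in every rat left no value for Slc34a3. No paired analysis was possible because the rat numbers are not shared between the groups. Depth limited Cyp27b1, which had at most 10 counts in a rat.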

Other observations

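The remaining marker lists are given by their counts. The late proximal tubule genes, 6 tested, had a median log2 fold change of 0.06 and 0 genes at an unadjusted *P* below 0.05 in edgeR's quasi-likelihood test, and DESeq2 called 0 of them. The thick ascending limb genes had a median of -0.17 and 0 of 6 log2 fold changes above 0, with 1 lower in the HD group at that threshold. The principal cell genes had 2 higher and 3 lower of 7, the intercalated cell genes 1 higher and 1 lower of 6, and the mesenchymal genes 1 higher and 2 lower of 9, with a median of -0.53. The 5 tested tubular injury genes had a median of -0.26 and 0 log2 fold changes above 0, with 1 lower at that threshold. Of the parathyroid gland genes, Pth was at 0 in every rat and 1 of 3 was tested, with a log2 fold change of -0.22.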
